A study of Saccharomyces cerevisiae with 8 samples.

Results

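The levels of 10 heat shock chaperone genes of the budding yeast Saccharomyces cerevisiae were followed over 4 strains: SSA1, SSA2, SSA3, SSA4, HSP82, HSC82, HSP104, HSP26, HSP42 and HSP12. The genes were chosen by name and matched by symbol, and they make up 10 of the 9014 features of the count table. All 10 passed the filter on low counts and were among the 7543 features tested. Polyadenylated RNA was sequenced on the SOLiD platform in 2 libraries per strain, in a study of how Air1 and Air2, zinc knuckle proteins of the nuclear TRAMP complex, choose RNAs for decay. Rrp6 is an exonuclease of the nuclear exosome, which degrades RNAs that TRAMP has tailed.

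The rrp6-Δ strain carried rrp6::LEU2. The air1-Δ rrp6-Δ strain carried rrp6::LEU2 and air1::bleR, and the air2-Δ rrp6-Δ strain carried rrp6::LEU2 and air2::bleR. The wild type (WT) was BY4742. All 4 strains shared MAT-alpha and the alleles his3D1, leu2D0, lys2D0 and ura3D0. Cells grew in rich medium (YPD) at 30 °C, to an OD600 near 2.5, and the labels name no heat shock. Nothing in the labels ties the libraries of a strain to separate cultures, so a p-value here reflects only how far these libraries spread, which may be technical.

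Chaperones bind proteins that are unfolded or misfolded and help them to fold, to reach a partner or to be pulled out of aggregates. In budding yeast most of these genes are transcribed at a basal rate in unstressed cells and at a much higher rate after a temperature shift. The transcription factor Hsf1 acts through heat shock elements, and Msn2 and Msn4 act through stress response elements, in the promoters of such genes. Some members, among them SSA2 and HSC82, are known as the constitutive copies of a family, while others, among them SSA3, SSA4 and HSP26, are known for low levels without stress.

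WT replicate 1 had the lowest total, 13787609 counts, and WT replicate 2 the highest, 124620247, and the ribosomal DNA took 51.7 to 82.3% of each library. Counts outside the ribosomal DNA ran from 4565468 to 22041136, and the 10 chaperone genes held 1.20 to 1.96% of these. RRP6 had 19 to 51 counts in the 6 libraries labelled as lacking it, against 377 and 2131 in WT. AIR1 had 7 and 2 counts in air1-Δ rrp6-Δ, and AIR2 had 34 and 21 in air2-Δ rrp6-Δ. LEU2 had 219 to 559 counts in the libraries without RRP6, against 0 and 0 in WT, so in comparisons with WT the loss of RRP6 and the presence of LEU2 cannot be told apart. Likewise, where a double mutant is compared with rrp6-Δ or WT, the loss of AIR1 or AIR2 and the presence of bleR cannot be told apart. The 4 markers of alpha cells summed to 8013 to 52441 counts per library and the 6 markers of a cells to 177 to 596, with alpha cell genes above a cell genes in every library, as the mating type label has it.

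The upstream windows of the members differed in their exact matches to binding motifs, and the sequences below show the matches to the heat shock element. A heat shock element was searched for as GAA-NN-TTC-NN-GAA or TTC-NN-GAA-NN-TTC, which are each other's reverse complement, and a stress response element as AGGGG on either strand. The window was the 500 bases upstream of the start codon in the RefSeq R64 genome, on whose build all coordinates here are given, since the count files carry no coordinates and name no build. Capitals mark the matching run of units, its N positions included, and each line gives 30 bases 5′ to 3′ on the strand of the gene.
HSP104, chrXII:88315-88344, plus strand: atatttTTCCAGAATTTTCTAGAAgggtta
SSA1, chrI:141772-141801, minus strand: taaactTTCCAGAACATTCTAGAAagaaag
SSA1, chrI:141671-141700, minus strand: tcttctttTTCCAGAACGTTCcatcggcgg
SSA2, chrXII:97697-97726, minus strand: aagtttttTTCTAGAACATTCcatcgaaga
HSP42, chrIV:806372-806401, plus strand: taaaagTTCTGGAAGGTTCGCGAAttgaga

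A heat shock element in these exact letters was found upstream of 4 of the 10 members, against 1.48% of 6006 upstream windows of the same length. The run was 18 bases long at HSP104, HSP42 and the outer SSA1 site, and 13 bases long at the inner SSA1 site and at SSA2. A stress response element was found upstream of 7 members, each of which held at least 2, against 34.1% of all windows with any and 8.18% with at least 2. HSP12 held the most, with 5, at 430, 409, 372, 227 and 185 bases before its start codon. Both motifs stood upstream of 3 members, HSP104, SSA1 and HSP42, against 0.483% of all windows. SSA3 and HSC82 had neither, which says only that these exact letters are not in that window. The same limit holds for HSP12, HSP26, SSA4 and HSP82, which had no match to the heat shock element. Elements with imperfect or differently spaced units were not searched for.

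**Figure D1:**
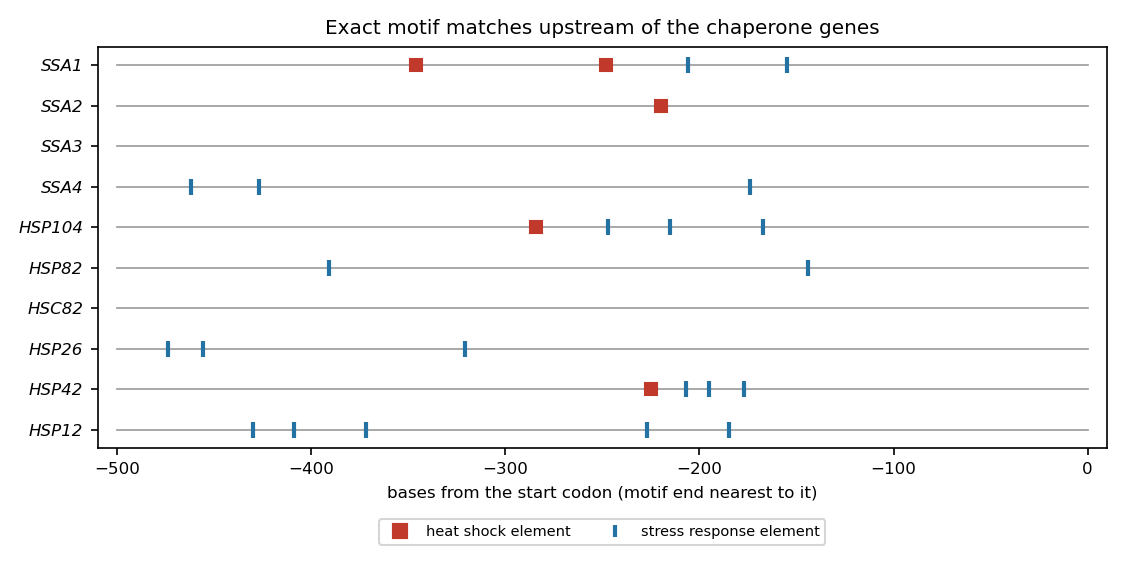
Exact matches to the heat shock element (squares) and the stress response element (bars) in the 500 bases upstream of each chaperone gene; the horizontal axis is the distance in bases from the start codon to the nearer end of the match. HSP12 carries 5 matches to the stress response element and none to the heat shock element, and SSA3 and HSC82 carry neither.

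Levels per length of coding sequence spanned a wide range. They are given as CPM (counts scaled to library size by edgeR, with TMM factors) per kilobase of coding sequence, averaged over the 8 libraries. SSA2, a cytosolic Hsp70, was highest at 1233, followed by HSC82, a cytosolic Hsp90, at 901, SSA1 at 372 and HSP82 at 150.2. HSP104, the disaggregase, stood at 76.6, and HSP12, whose protein is associated with membranes, at 35.3. HSP26 at 14.5, SSA4 at 13.5 and HSP42 at 13.1 formed a close group, and SSA3 was lowest at 3.25. Per library, SSA2 and HSC82 overlapped, HSP82 overlapped HSP104, HSP104 overlapped HSP12, and HSP12, HSP26, SSA4 and HSP42 overlapped each other. The ranges of HSC82 and SSA1, of SSA1 and HSP82, and of HSP42 and SSA3 did not overlap.

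Over the 4 strains the chaperone genes differed little beyond the spread of the duplicates, and HSP12 had the largest differences between strain means. The mean of HSP12 was 4.33 times as high in the highest strain as in the lowest, while this ratio was 2.34 for HSP26, 1.72 for SSA4, 1.62 for SSA3 and between 1.16 and 1.43 for the other members. A gene was called where its adjusted p, from edgeR's quasi-likelihood test and Benjamini-Hochberg adjustment across 7543 features, was under 0.05. By this rule 0 of the 10 members were called in rrp6-Δ against WT, where 10.3% of all features were. In air1-Δ rrp6-Δ against WT 0 members and 8.54% of all features were called, and in air2-Δ rrp6-Δ against WT 0 members and 10.6% of all features. At such shares a list of 10 genes would hold about 1 called gene. Against rrp6-Δ, 0 members were called in air1-Δ rrp6-Δ, with 0.0663% of all features, and 0 in air2-Δ rrp6-Δ, with 0.0133%. In air1-Δ rrp6-Δ against air2-Δ rrp6-Δ 0 members and 0.0795% of all features were called, and a joint test of any difference among the 4 strains called 0 members and 5.69% of all features.

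An unadjusted p under 0.05 was reached by 1 member in rrp6-Δ against WT (HSP26), against 23.6% of all features, by 1 in air1-Δ rrp6-Δ against WT (HSP12), against 20.2%, and by 2 in air2-Δ rrp6-Δ against WT (HSP12 and SSA3), against 22.7%. It was reached by 2 members in air1-Δ rrp6-Δ against rrp6-Δ (HSP12 and SSA4), against 5.85%, by 1 in air2-Δ rrp6-Δ against rrp6-Δ (HSP12), against 2.69%, and by 0 between the double mutants, against 4.16%. In the joint test 1 member, HSP12, reached it, against 18.5% of all features. Against WT and in the joint test these counts were at or below the share of all features. DESeq2 called 1 of the 10 members, HSP12, in air1-Δ rrp6-Δ against WT, where it called 10.3% of all features, in air2-Δ rrp6-Δ against WT (12.8%), in air1-Δ rrp6-Δ against rrp6-Δ (0.159%) and in the joint test (11.3%). It called 0 members in rrp6-Δ against WT (12.5% of all features), in air2-Δ rrp6-Δ against rrp6-Δ (0.278%) and in air1-Δ rrp6-Δ against air2-Δ rrp6-Δ (0.278%). The median log2 fold change of the 10 members against WT was -0.16 in rrp6-Δ, 0.003 in air1-Δ rrp6-Δ and -0.20 in air2-Δ rrp6-Δ, beside 0.01, 0.02 and 0.03 over all features. Comparisons with the same control share its libraries.

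**Figure D2:**
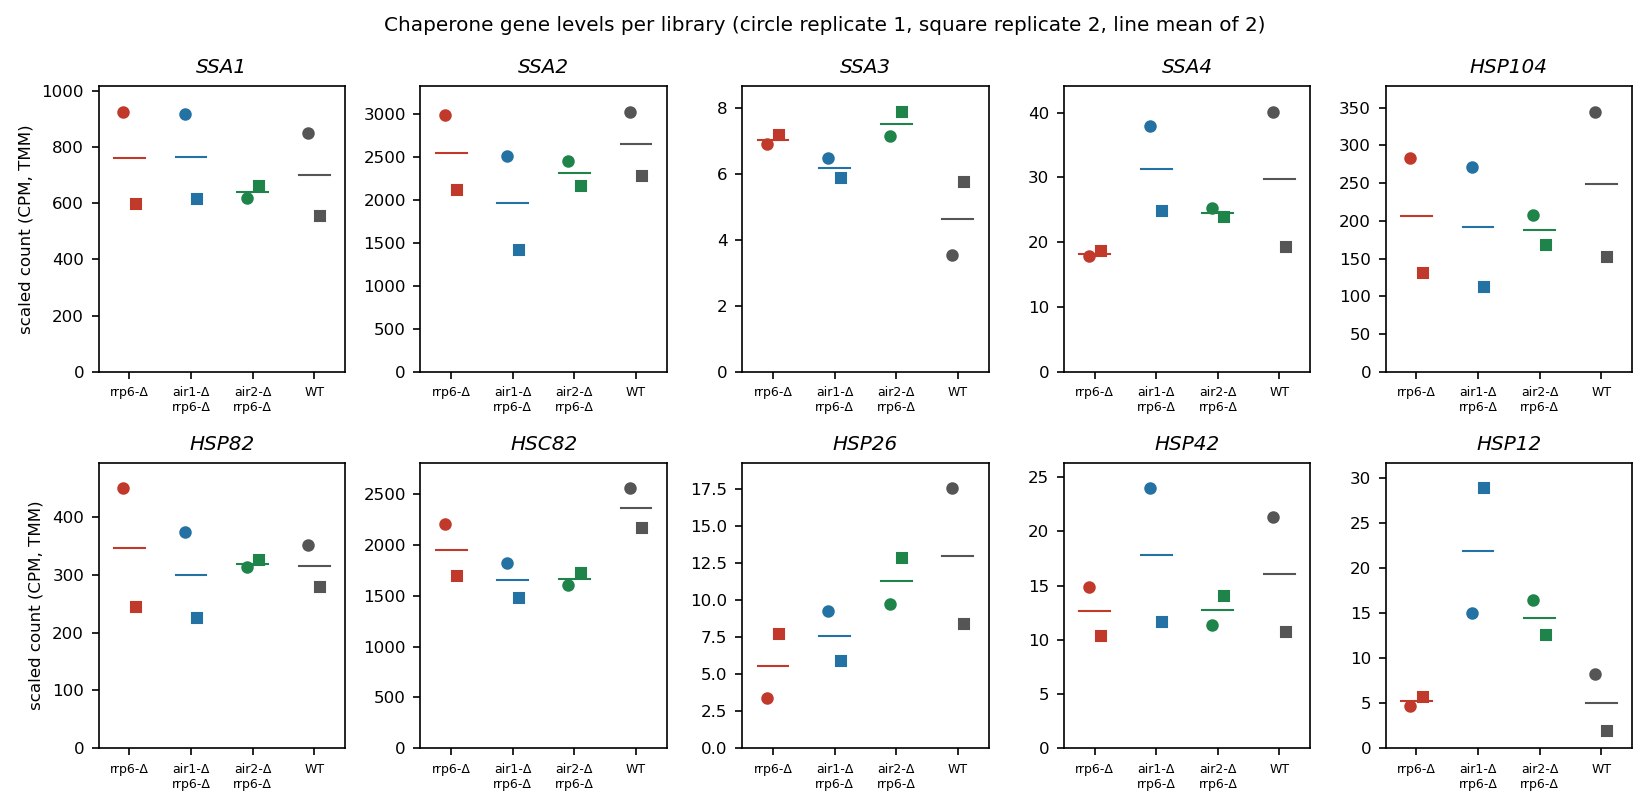
Scaled count (CPM on the TMM scale) of each chaperone gene in each library, with rrp6-Δ, air1-Δ rrp6-Δ, air2-Δ rrp6-Δ and WT in order on the horizontal axis; circles are replicate 1, squares replicate 2 and lines the mean of 2, on vertical axes that start at 0 and differ between genes. The HSP12 libraries of both double mutants, at 12.6 to 28.8, lie above those of rrp6-Δ and WT, at 1.89 to 8.21.

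The SSA genes encode the cytosolic Hsp70s, which bind exposed hydrophobic stretches and release them in an ATP-driven cycle. SSA1 had 925 and 599 CPM in rrp6-Δ, 917 and 616 in air1-Δ rrp6-Δ and 621 and 663 in air2-Δ rrp6-Δ, against 851 and 553 in WT. Every strain overlapped WT. The fitted log2 fold change of SSA1 in rrp6-Δ against WT was 0.12, with a 95% interval of -0.60 to 0.83, so a level up to 1.78 times that of WT lies within the interval. SSA2 had 2987 and 2113 CPM in rrp6-Δ, 2510.3 and 1416 in air1-Δ rrp6-Δ and 2452 and 2167 in air2-Δ rrp6-Δ, against 3025 and 2275 in WT. The lowest SSA2 library was air1-Δ rrp6-Δ replicate 2, and the log2 fold change of that strain against WT was -0.43 (95% interval -1.19 to 0.33, adjusted p = 0.553 by edgeR's quasi-likelihood test).

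SSA3 and SSA4 are the stress-induced cytosolic Hsp70s. SSA3 had 6.90 and 7.17 CPM in rrp6-Δ, 6.48 and 5.89 in air1-Δ rrp6-Δ and 7.16 and 7.88 in air2-Δ rrp6-Δ, against 3.54 and 5.74 in WT. All 6 libraries without RRP6 lay above both WT libraries, the lower of which rests on 44 counts. The log2 fold changes of SSA3 against WT were 0.58 in rrp6-Δ (95% interval -0.04 to 1.21), 0.40 in air1-Δ rrp6-Δ (-0.23 to 1.03) and 0.68 in air2-Δ rrp6-Δ (0.05 to 1.31), with adjusted p-values of 0.245, 0.499 and 0.183 by edgeR's quasi-likelihood test. These SSA3 values depended on the WT library: without WT replicate 1 they were 0.20, 0.03 and 0.27, and without WT replicate 2 they were 0.96, 0.79 and 1.04, in the same order of strains, and none was called. SSA4 had 17.9 and 18.6 CPM in rrp6-Δ, 37.9 and 24.8 in air1-Δ rrp6-Δ and 25.2 and 23.9 in air2-Δ rrp6-Δ, against 40.1 and 19.3 in WT. Both rrp6-Δ libraries were below all other libraries. The SSA4 log2 fold change was -0.70 in rrp6-Δ against WT (95% interval -1.44 to 0.04, adjusted p = 0.239) and 0.78 in air1-Δ rrp6-Δ against rrp6-Δ (0.04 to 1.52, adjusted p = 0.769). The SSA4 value in rrp6-Δ against WT depended on the WT library: it was -0.17 (adjusted p = 0.773) without WT replicate 1 and -1.16 (adjusted p = 0.0368) without WT replicate 2. In the authors' deposited table, whose p-values carry no statement of adjustment, the SSA4 log2 ratio was -1.13 in rrp6-Δ against WT (p = 0.0171) and 0.79 in air1-Δ rrp6-Δ against rrp6-Δ (p = 0.0317).

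HSP82 and HSC82 encode the cytosolic Hsp90s, which bring client proteins such as kinases to an active state, HSP82 being known as the heat-inducible copy. HSP82 had 449 and 243 CPM in rrp6-Δ, 373 and 225 in air1-Δ rrp6-Δ and 313 and 325 in air2-Δ rrp6-Δ, against 351 and 279 in WT. The strains overlapped, and the log2 fold changes of HSP82 against WT were 0.14, -0.07 and 0.02 in that order of strains. HSC82 had 2209 and 1693 CPM in rrp6-Δ, 1822 and 1479 in air1-Δ rrp6-Δ and 1608 and 1727 in air2-Δ rrp6-Δ, against 2554 and 2168 in WT. All 4 double-mutant libraries were below both WT libraries. The HSC82 log2 fold change against WT was -0.52 in air1-Δ rrp6-Δ (95% interval -1.10 to 0.07, adjusted p = 0.315) and -0.50 in air2-Δ rrp6-Δ (-1.09 to 0.08, adjusted p = 0.292), and with library totals in place of TMM these values were 0.14 and 0.37. Library totals moved the median of all features against WT to 0.78 in air1-Δ rrp6-Δ and 0.95 in air2-Δ rrp6-Δ, so HSC82 lay below that median on both scales.

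HSP104 encodes the disaggregase, a ring-shaped AAA+ protein that threads chains out of aggregates together with Hsp70. It had 283 and 131 CPM in rrp6-Δ, 272 and 113 in air1-Δ rrp6-Δ and 208 and 168 in air2-Δ rrp6-Δ, against 344 and 153 in WT. Every strain overlapped WT, and the duplicates of 3 strains were more than 1 log2 unit apart. The log2 fold changes of HSP104 against WT were -0.26, -0.37 and -0.40, and the interval in air2-Δ rrp6-Δ ran from -1.60 to 0.80.

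HSP26 and HSP42 encode small heat shock proteins, which hold unfolding proteins in a state that other chaperones can refold. HSP26 had 3.38 and 7.72 CPM in rrp6-Δ, 9.26 and 5.89 in air1-Δ rrp6-Δ and 9.74 and 12.8 in air2-Δ rrp6-Δ, against 17.5 and 8.41 in WT. Both rrp6-Δ libraries were below both WT libraries and below both air2-Δ rrp6-Δ libraries. The HSP26 log2 fold change in rrp6-Δ against WT was -1.22 (95% interval -2.26 to -0.18, adjusted p = 0.143 by edgeR's quasi-likelihood test). Single libraries moved this HSP26 value: it was -0.74 (adjusted p = 0.537) without rrp6-Δ replicate 1 and -1.93 (adjusted p = 0.0475) without rrp6-Δ replicate 2, and -0.71 (adjusted p = 0.413) without WT replicate 1 and -1.70 (adjusted p = 0.0521) without WT replicate 2. In air2-Δ rrp6-Δ against rrp6-Δ the HSP26 log2 fold change was 1.03 (-0.01 to 2.06). In the authors' deposited table the HSP26 log2 ratio was -1.67 in rrp6-Δ against WT (p = 0.000724) and 1.03 in air2-Δ rrp6-Δ against rrp6-Δ (p = 0.00688). HSP42 had 14.9 and 10.4 CPM in rrp6-Δ, 23.9 and 11.6 in air1-Δ rrp6-Δ and 11.4 and 14.1 in air2-Δ rrp6-Δ, against 21.3 and 10.7 in WT. Every strain overlapped WT for HSP42, with log2 fold changes of -0.34, 0.15 and -0.33.

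HSP12 encodes a small protein that folds on membranes and is a standard reporter of Msn2 and Msn4 activity. It had 15.0 and 28.8 CPM in air1-Δ rrp6-Δ and 16.4 and 12.6 in air2-Δ rrp6-Δ, against 4.70 and 5.68 in rrp6-Δ and 8.21 and 1.89 in WT. The counts behind these values were 259 and 685 in air1-Δ rrp6-Δ, 621 and 311 in air2-Δ rrp6-Δ, 163 and 134 in rrp6-Δ and 102 and 115 in WT. All 4 double-mutant libraries lay above all 4 libraries of rrp6-Δ and WT, while rrp6-Δ and WT overlapped.

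The log2 fold change of HSP12 in air1-Δ rrp6-Δ was 2.08 against rrp6-Δ (SE 0.62, 95% interval 0.64 to 3.52, adjusted p = 0.769 by edgeR's quasi-likelihood test) and 2.15 against WT (SE 0.63, 0.70 to 3.61, adjusted p = 0.0851). In air2-Δ rrp6-Δ it was 1.48 against rrp6-Δ (SE 0.61, 0.06 to 2.90, adjusted p = 1) and 1.55 against WT (SE 0.62, 0.12 to 2.99, adjusted p = 0.183). None of these 4 values passed the threshold over all features. The double mutants did not differ from each other beyond the duplicates, at 0.60 in air1-Δ rrp6-Δ against air2-Δ rrp6-Δ (95% interval -0.79 to 1.98), an interval that allows HSP12 to be up to 3.95 times as high in air1-Δ rrp6-Δ. In rrp6-Δ against WT the HSP12 log2 fold change was 0.07 (-1.34 to 1.49).

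The WT level of HSP12 rests on duplicates that were 2.08 log2 units apart. Without WT replicate 1, HSP12 was called in both double mutants against WT, at 3.45 in air1-Δ rrp6-Δ (adjusted p = 0.0064) and 2.82 in air2-Δ rrp6-Δ (adjusted p = 0.00869) by edgeR's quasi-likelihood test. Without WT replicate 2 the values were 1.40 (adjusted p = 0.0935) and 0.77 (adjusted p = 0.306), and the value in rrp6-Δ against WT was 1.36 without WT replicate 1 and -0.69 without WT replicate 2. With the ribosomal DNA share in the model, the HSP12 log2 fold change against WT was 1.52 in air1-Δ rrp6-Δ (adjusted p = 0.199) and 0.70 in air2-Δ rrp6-Δ (adjusted p = 0.723). With the 2 strains of a comparison fitted alone, HSP12 in the double mutants kept an unadjusted p under 0.05 against rrp6-Δ but not against WT. Against rrp6-Δ, its log2 fold change over 16 other settings ran from 1.53 to 2.49 in air1-Δ rrp6-Δ and from 1.03 to 1.79 in air2-Δ rrp6-Δ. DESeq2 gave HSP12 an adjusted p of 0.00112 in air1-Δ rrp6-Δ against WT, 0.0291 in air2-Δ rrp6-Δ against WT, 0.0423 in air1-Δ rrp6-Δ against rrp6-Δ and 0.737 in air2-Δ rrp6-Δ against rrp6-Δ. In the authors' deposited table the HSP12 log2 ratio against rrp6-Δ was 2.10 in air1-Δ rrp6-Δ (p = 6.55e-08) and 1.48 in air2-Δ rrp6-Δ (p = 0.000116), and in rrp6-Δ against WT it was -0.66 (p = 0.176), of the other sign to the 0.07 of the fit here.

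**Figure D3:**
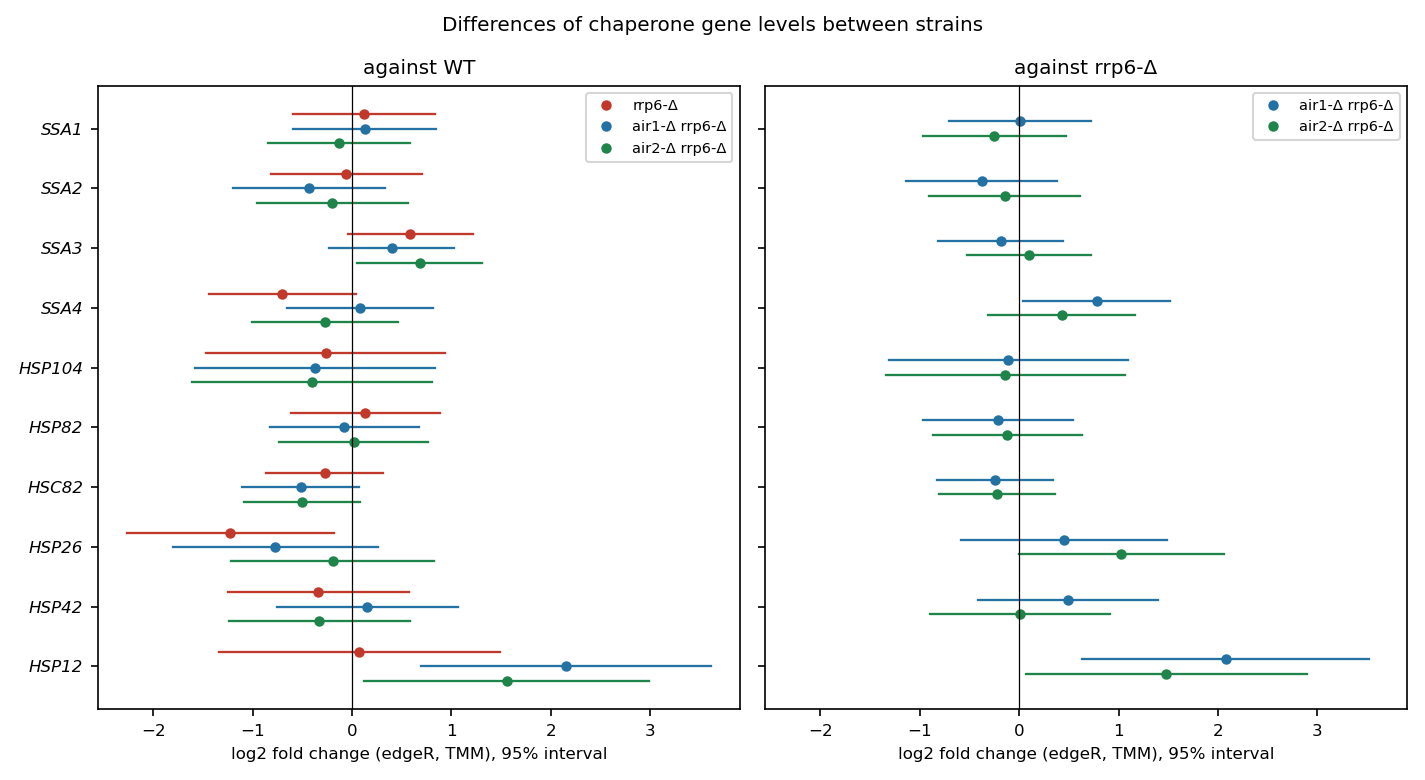
Log2 fold change of each chaperone gene (points) with its 95% interval (lines) from edgeR's quasi-likelihood model as reported (1 mean per strain), against WT on the left for rrp6-Δ and both double mutants, and against rrp6-Δ on the right for the double mutants. The HSP12 intervals of both double mutants lie above 0 in both panels, and most other intervals include 0.

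The duplicates of air1-Δ rrp6-Δ and of WT differed in the same direction in most chaperone genes, while those of rrp6-Δ and air2-Δ rrp6-Δ were more evenly split. The median log2 ratio of replicate 1 to replicate 2 over the 10 members was 0.44 in rrp6-Δ, 0.63 in air1-Δ rrp6-Δ, -0.08 in air2-Δ rrp6-Δ and 0.80 in WT, beside medians of -0.05, 0.01, -0.03 and -0.03 over all features. Replicate 1 was the higher library for 6 of the 10 members in rrp6-Δ, 9 in air1-Δ rrp6-Δ, 4 in air2-Δ rrp6-Δ and 9 in WT. Over all features it was the higher one for 46.5, 51.2, 46.1 and 46.4%, in the same order of strains. HSP104 had the highest log2 ratio of replicate 1 to replicate 2 in rrp6-Δ and air1-Δ rrp6-Δ, at 1.12 and 1.27, with 1.17 in WT and 0.30 in air2-Δ rrp6-Δ. In rrp6-Δ the duplicates of HSP26 lay farther apart, in the other direction, at -1.18. Without sign, the median distance between duplicates was 0.51, 0.69, 0.16 and 0.84 over the members and 0.36, 0.29, 0.25 and 0.34 over all features, in the same order of strains, so air2-Δ rrp6-Δ was the only strain in which the members' median was the smaller one.

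The ribosomal DNA share also differed within strains, at 57.0 and 68.9% in rrp6-Δ, 70.8 and 51.7% in air1-Δ rrp6-Δ, 57.1 and 55.1% in air2-Δ rrp6-Δ and 66.9 and 82.3% in WT. The library with more chaperone RNA had the lower share in rrp6-Δ and WT and the higher share in air1-Δ rrp6-Δ. With this share added to the model, edgeR's quasi-likelihood test called 0 of the 10 members in each of the 7 tests. It then also called fewer of all features against WT and in the joint test: 4.55% in rrp6-Δ, 1.66% in air1-Δ rrp6-Δ and 1.33% in air2-Δ rrp6-Δ against WT, and 0.464% in the joint test. In the other 3 comparisons the numbers of calls were 5, 1 and 6, as without the share.

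**Figure D4:**
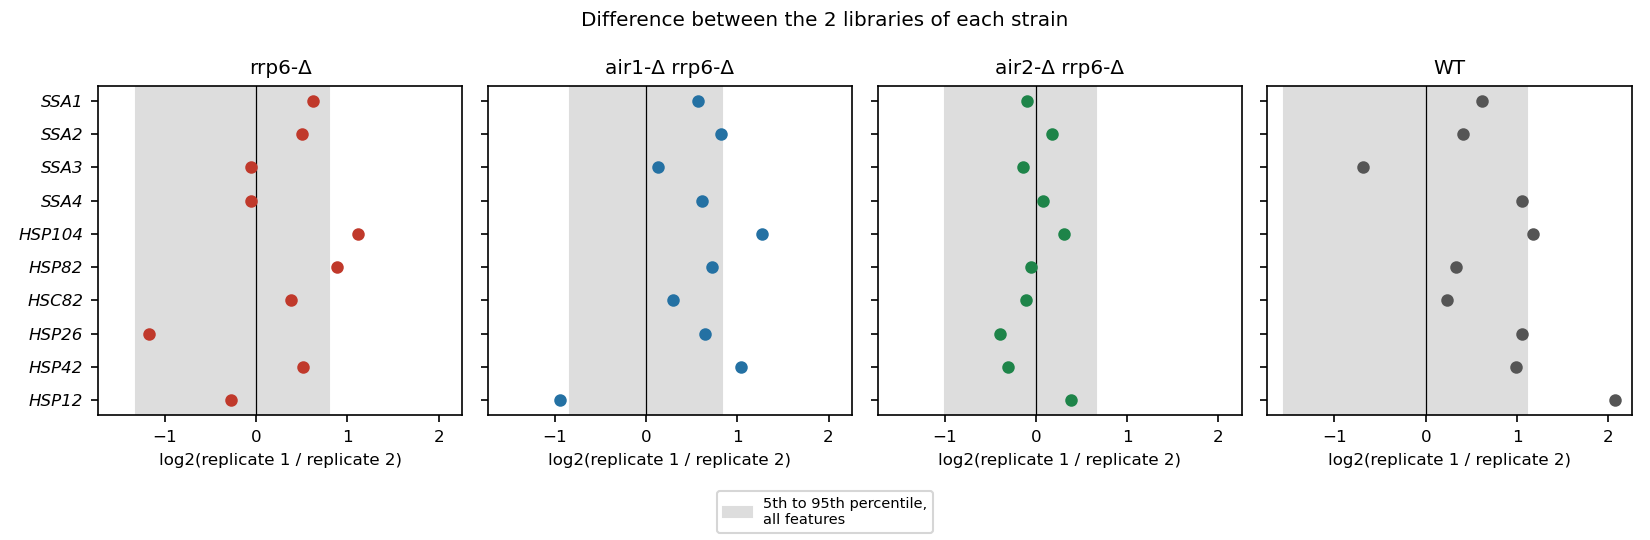
Log2 ratio of replicate 1 to replicate 2 for each chaperone gene, 1 panel per strain; the grey band spans the 5th to 95th percentile of all 7543 features. Most members lie to the right of 0 in rrp6-Δ, air1-Δ rrp6-Δ and WT and nearer to 0 in air2-Δ rrp6-Δ, and HSP12 in WT, at 2.08, lies farthest outside the band. HSP104 also lies outside it in rrp6-Δ, air1-Δ rrp6-Δ and WT, as do HSP82 in rrp6-Δ, and HSP42 and HSP12 in air1-Δ rrp6-Δ.

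Over the 8 libraries most members had a partner among the others with a similar pattern. Each r between members below is the highest over the other members, and no such value was computed for other features. By Pearson's r of log2 CPM, as a description over 8 libraries that include the duplicates above, HSP104 was most like SSA2 (0.89), HSP82 was most like HSP104 (0.88), HSP42 was most like SSA1 (0.87), SSA4 was most like HSP42 (0.82) and HSC82 was most like SSA2 (0.78). HSP26 reached 0.66 and HSP12 0.49, both with SSA4, and SSA3 had no close partner, its highest value being 0.11 with HSP12. With the mean profile of the 10 members, of which each gene is a part, r was 0.89 for HSP42 and 0.86 for SSA4, and 0.50 for SSA2 and 0.25 for HSC82, the most abundant members. Outside the members, 3781 features with a mean of at least 10 CPM were compared with the members' mean profile, each member centred on its own mean. How high the top values of so many features would run for an unrelated profile was not computed. The 5 most like it were UME6 (Pearson's r 0.95, Spearman's rho 0.98), which encodes a regulator of meiotic genes, the Ty1 feature YMRCTy1-3 (0.90 and 0.95), MOT2 (0.89 and 0.86), a subunit of the Ccr4-Not complex, YRB30 (0.89 and 0.90), a Ran-binding protein, and PIC2 (0.89 and 0.83), a mitochondrial carrier.

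SSA1 with SSA2 and HSP82 with HSC82 are similar pairs, so reads can match both copies. In RefSeq R64 the coding sequences of SSA1 (chrI:139503-141431) and SSA2 (chrXII:95566-97485), each a single exon on the minus strand, were identical at 96.4% of aligned positions. Of the 50-base windows of SSA1, a length chosen for this description, 57.9% also occurred in SSA2, and the longest identical stretch was 383 bases. HSP82 (chrXVI:96496-98625, minus strand) and HSC82 (chrXIII:632355-634472, plus strand) were identical at 91.7%, shared 6.39% of such windows and had a longest identical stretch of 113 bases. SSA3 and SSA4 were 76.6% identical and shared 0 windows. The 60-base stretches below are the aligned windows of each pair with the most differences, 9 in the SSA pair and 14 in the HSP90 pair, and show the bases by which a read can be assigned. Capitals mark the bases that differ within a pair.
SSA1, coding bases 1661 to 1720: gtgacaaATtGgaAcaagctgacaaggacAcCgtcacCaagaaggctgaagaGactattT
SSA2, coding bases 1661 to 1720: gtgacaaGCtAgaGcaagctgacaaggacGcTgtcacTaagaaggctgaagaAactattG
HSP82, coding bases 1220 to 1279: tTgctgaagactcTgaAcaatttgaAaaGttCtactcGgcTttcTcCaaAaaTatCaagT
HSC82, coding bases 1208 to 1267: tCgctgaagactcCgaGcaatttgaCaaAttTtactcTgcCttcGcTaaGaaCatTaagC

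The deposited counts of these 4 genes were not whole numbers in most libraries, whereas those of HSP12, HSP26, HSP42, HSP104 and SSA3 were whole in all 8. The SSA1 and SSA2 values, and those of HSP82 and HSC82, are therefore uncertain as to how reads were divided. The SSA4 counts were whole except in rrp6-Δ, at 619.073 and 439.088, and how reads were divided there is not known. Summed, SSA1 plus SSA2 had log2 fold changes of -0.02 in rrp6-Δ, -0.30 in air1-Δ rrp6-Δ and -0.18 in air2-Δ rrp6-Δ against WT, with adjusted p-values of 0.984, 0.714 and 0.804 by edgeR's quasi-likelihood test. HSP82 plus HSC82 had -0.22, -0.46 and -0.43, with adjusted p-values of 0.673, 0.41 and 0.405. Neither sum passed the threshold in any of these comparisons.

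The balance within each pair leaned to the same copy in every library. SSA1 held 23.6 and 22.1% of SSA1 plus SSA2 in rrp6-Δ, 26.8 and 30.3% in air1-Δ rrp6-Δ and 20.2 and 23.4% in air2-Δ rrp6-Δ, against 21.96 and 19.6% in WT. Only the air1-Δ rrp6-Δ libraries lay above all other libraries. HSP82 held 16.9 and 12.6% of HSP82 plus HSC82 in rrp6-Δ, 16.996 and 13.2% in air1-Δ rrp6-Δ and 16.3 and 15.8% in air2-Δ rrp6-Δ, against 12.1 and 11.4% in WT. The 6 libraries without RRP6 lay above both WT libraries, with means of 15.3% ± 1.92 (SD, n = 6) and 11.7% ± 0.487 (SD, n = 2). An exact permutation test gave a two-sided p of 0.0714, the smallest that 6 against 2 libraries allow, and 0.143 for the SSA1 share, with 0.143 for both after Benjamini-Hochberg adjustment over the 2 shares. The 3 strains without RRP6 were pooled for this test, which takes the libraries of a strain as independent, though they may be technical duplicates.

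**Figure D5:**
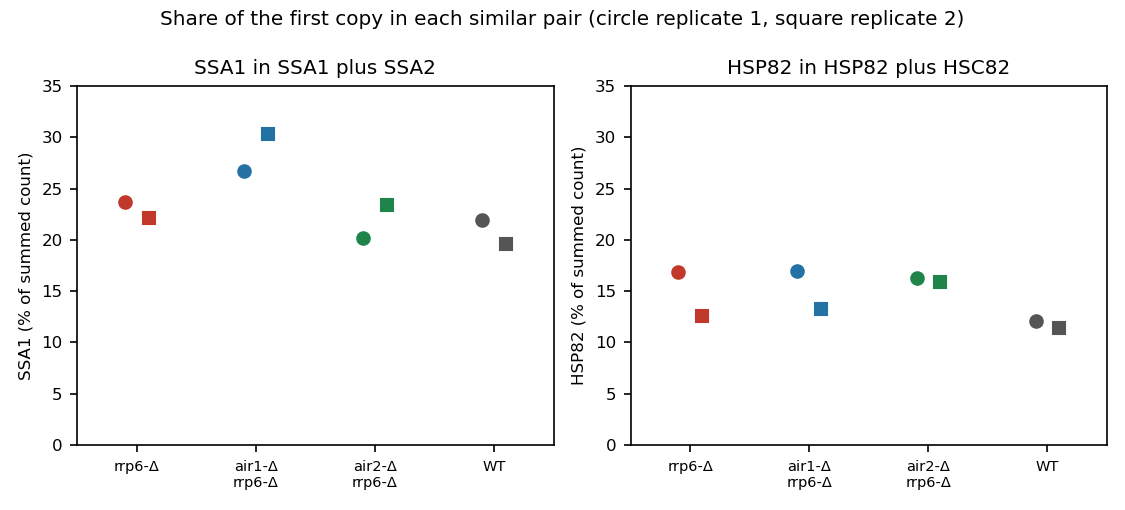
Share of SSA1 in SSA1 plus SSA2 (left) and of HSP82 in HSP82 plus HSC82 (right), in percent of the summed count, for each library of rrp6-Δ, air1-Δ rrp6-Δ, air2-Δ rrp6-Δ and WT; circles are replicate 1 and squares replicate 2. The HSP82 share was 12.6 to 16.996% in the libraries without RRP6 and 11.4 to 12.1% in WT.

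Partners and regulators of the chaperones were described by 5 gene lists. Their counts stand beside the shares of all features given above for the same comparisons. Against WT, an unadjusted p under 0.05 was reached by 23.6% in rrp6-Δ, 20.2% in air1-Δ rrp6-Δ and 22.7% in air2-Δ rrp6-Δ. In that order, edgeR's quasi-likelihood test called 10.3, 8.54 and 10.6%, and DESeq2 called 12.5, 10.3 and 12.8%. Against rrp6-Δ, an unadjusted p under 0.05 was reached by 5.85% in air1-Δ rrp6-Δ and 2.69% in air2-Δ rrp6-Δ, and between the double mutants by 4.16%. Of 19 co-chaperones of Hsp70 and Hsp90, among them the J-domain proteins YDJ1 and SIS1 and the adaptor STI1, edgeR's quasi-likelihood test called 0 in every comparison. Against WT, 5 of the 19 had an unadjusted p under 0.05 in rrp6-Δ, 2 in air1-Δ rrp6-Δ and 4 in air2-Δ rrp6-Δ, with 0 in the other 3 comparisons, and DESeq2 called 1, SSE2, lower in rrp6-Δ. Of 12 other Hsp70s and their partners, edgeR's quasi-likelihood test called 1 lower in air1-Δ rrp6-Δ against WT, where it called 8.54% of all features. LHS1, an Hsp70 of the endoplasmic reticulum, had 43.5 and 36.6 CPM in air1-Δ rrp6-Δ, against 70.5 and 62.9 in WT (log2 fold change -0.74, adjusted p = 0.0456). That call was lost under 11 of 16 other settings. At an unadjusted p under 0.05 against WT stood 3 of the 12 in rrp6-Δ, 4 in air1-Δ rrp6-Δ and 3 in air2-Δ rrp6-Δ. DESeq2 called LHS1 too, and SSC1 lower in air2-Δ rrp6-Δ against WT.

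Of 11 chaperonins and mitochondrial heat shock proteins, edgeR's quasi-likelihood test called 0 in every comparison, with 1 in rrp6-Δ, 1 in air1-Δ rrp6-Δ and 2 in air2-Δ rrp6-Δ at an unadjusted p under 0.05 against WT and 1 in air1-Δ rrp6-Δ against rrp6-Δ. DESeq2 called 1 of them, HSP10, lower in rrp6-Δ against WT. Of 9 regulators, among them HSF1 and MSN2, it called 0 in every comparison, with 1 at an unadjusted p under 0.05 in each comparison except air2-Δ rrp6-Δ against rrp6-Δ, and DESeq2 called 0. HSF1 had 28.4 and 22.02 CPM in rrp6-Δ, 22.2 and 20.6 in air1-Δ rrp6-Δ and 27.3 and 27.3 in air2-Δ rrp6-Δ, against 23.99 and 19.4 in WT, and only air2-Δ rrp6-Δ stood apart from WT.

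The general stress genes were listed as targets of Msn2 and Msn4, like HSP12, but whether each of them is one was not checked. Of the 18 on the list, 17 were tested. In air2-Δ rrp6-Δ against WT 1 rose and 1 fell by edgeR's quasi-likelihood test, which called 10.6% of all features there, and 4 had an unadjusted p under 0.05. DESeq2 called 4 (RTN2, PGM2, GRE1 and GPH1), 2 of them higher and 2 lower. GRE1, a hydrophilin gene, had 2.01 and 1.74 CPM in air2-Δ rrp6-Δ, against 0.322 and 0.214 in WT (log2 fold change 2.90, adjusted p = 0.00957). Its WT values rest on 4 and 13 counts. GPH1, glycogen phosphorylase, had 3.12 and 6.18 CPM in air2-Δ rrp6-Δ, against 21.4 and 10.4 in WT (log2 fold change -1.77, adjusted p = 0.0248). The GRE1 call was lost under 3 and the GPH1 call under 5 of 16 other settings. In the other 5 comparisons 0 of the 17 were called, with 3 in rrp6-Δ and 2 in air1-Δ rrp6-Δ at an unadjusted p under 0.05 against WT, and DESeq2 called 1, RTN2, higher in each of these. Of these comparisons, air2-Δ rrp6-Δ against rrp6-Δ and air1-Δ rrp6-Δ against air2-Δ rrp6-Δ each had 2 at an unadjusted p under 0.05, against 2.69 and 4.16% of all features. DESeq2 called 0 in both, but gave no adjusted p to 4 of the 17 in the former and 1 in the latter. The median log2 fold change of the 17 against WT was -0.22 in rrp6-Δ, -0.13 in air1-Δ rrp6-Δ and -0.32 in air2-Δ rrp6-Δ. Against rrp6-Δ this median was 0.09 in air1-Δ rrp6-Δ and -0.14 in air2-Δ rrp6-Δ. The HSP12 values of the double mutants were above 0 against WT and against rrp6-Δ, and a shared cause was not tested.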

How the data were processed

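Per the file headers and values, the authors deposited an unscaled table of expected counts, 1 column per library, in which 11.1 to 13.0% of values are not whole. The authors also deposited a table with log2 ratios and p-values for 5 comparisons, which entered no fit. Tools listed in the submitters' processing notes are Bowtie 0.12.7, edgeR 2.2.5 and SAMtools. How strand and multiply matching reads were counted, and on which build and annotation, is not given in the sources used here.

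Expected counts were rounded, filtered with filterByExpr of edgeR 4.0.16 (minimum count 10) and scaled by TMM. In R 4.3.3 all 8 libraries entered 1 quasi-likelihood fit (robust), with a mean for each strain, and p-values were adjusted by Benjamini-Hochberg over 7543 features. Standard errors are the log2 fold change over the root of F, and 95% intervals use the model's degrees of freedom. The duplicates of each strain differed by more than counting error. Coding sequences, upstream windows and gene names came from RefSeq R64, to which 6048 identifiers matched. DESeq2 1.42.0 and the settings in the closing section were alternatives.

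The members and lists were chosen with earlier results of these data known. The text names all 10 members, up to 3 called genes with the smallest adjusted p per list and comparison, and the 5 features most like the members' mean profile. Other list members were named after their values were seen.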

Additional observations from a re-analysis of the deposited data

How the results depend on the processing

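Under 16 other settings, 54 of the 60 log2 fold changes of single chaperone genes (10 genes in 6 comparisons) were called under none, and 6 under 1 or more: HSP12 in both double mutants against WT and in air1-Δ rrp6-Δ against rrp6-Δ, HSP26 and SSA4 in rrp6-Δ against WT, and SSA3 in air2-Δ rrp6-Δ against WT. None of these 6 turned its direction. Beside the reported counts of 0, library totals in place of TMM called 1 of 10 members (HSP12) in air1-Δ rrp6-Δ against WT, where they called 15.6% of all features. They called 2 (HSP12 and SSA3) in air2-Δ rrp6-Δ against WT (20.5% of all features) and 1 (HSP12) in the joint test of the 4 strains (15.3%). These totals moved the median log2 fold change of all features against WT to 0.64 in rrp6-Δ, 0.78 in air1-Δ rrp6-Δ and 0.95 in air2-Δ rrp6-Δ. DESeq2 in place of edgeR called 1 (HSP12) in each of air1-Δ rrp6-Δ against WT (10.3% of all features), air2-Δ rrp6-Δ against WT (12.8%), air1-Δ rrp6-Δ against rrp6-Δ (0.159%) and the joint test (11.3%). Leaving out 1 library at a time gave 0 to 1 called members in rrp6-Δ against WT, in air1-Δ rrp6-Δ against WT, in air2-Δ rrp6-Δ against WT and in the joint test, where HSP12 was called without WT replicate 1 and without WT replicate 2. A strain left with 1 library was assumed to vary like the others. The cause of these calls was not tested. Over these settings the number of all features called ran between 336 and 1145 in rrp6-Δ against WT (779 as reported), 125 and 1180 in air1-Δ rrp6-Δ against WT (644) and 100 and 1544 in air2-Δ rrp6-Δ against WT (796). It ran between 4 and 19 in air1-Δ rrp6-Δ against rrp6-Δ (5), 0 and 21 in air2-Δ rrp6-Δ against rrp6-Δ (1), 5 and 21 between the double mutants (6) and 35 and 1156 in the joint test (429). Strains share replicate numbers, and deviations of same-numbered libraries correlated at 0.13 to 0.37 in all 6 pairs of strains, with only 2 pairs in each comparison and no label that the numbers mark a batch. With the replicate block 0 of the 10 members were called in every test, HSP12 no longer had an unadjusted p under 0.05 in air2-Δ rrp6-Δ against WT or rrp6-Δ or in the joint test, and in rrp6-Δ against WT SSA3 and SSA4 had one in place of HSP26, and in air1-Δ rrp6-Δ against WT HSC82 had one beside HSP12. Under it, calls over all features were 973 in rrp6-Δ, 858 in air1-Δ rrp6-Δ and 998 in air2-Δ rrp6-Δ against WT. With 2 libraries per strain, the intervals of HSP12 and HSP104 are the widest, and a difference of any size inside an interval remains compatible with these data.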

Other observations

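In the authors' deposited table the columns headed as air1 and air2 against wt run opposite to the fits given here. Of the features called in air1-Δ rrp6-Δ against WT, 0 of 644 had the same sign in the air1 column, and of those called in air2-Δ rrp6-Δ against WT 0 of 796 had the same sign in the air2 column. For rrp6-Δ against WT all 779 called features had the same sign. Of 759 cryptic unstable transcripts, short RNAs that the nuclear exosome degrades, 9 were above 0 in the air1 column and 8 in the air2 column, against 747 in the rrp6 column. HSP12 stood at -1.42 and HSP26 at 1.22 in the air1 column of the authors' deposited table, while the fits gave 2.15 and -0.77 in air1-Δ rrp6-Δ against WT. These columns were therefore not quoted with the results. The p-value column for rrp6 against wt in the same table holds 1 value below 0.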
